A study of Rattus norvegicus with 6 samples.

Results

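The insulin-like growth factor (IGF) genes of Schwann cells were examined as 10 genes, namely the ligands Igf1 and Igf2, the receptors Igf1r and Igf2r, and the binding proteins Igfbp2 to Igfbp7. They were taken by name from the 29468 gene symbols in the tables of transcripts. RNA was sequenced from LEWIS rats in 2 groups of 3 samples. The study's methods name wild-type rats for all experiments but transgenic rats with a red fluorescent protein as the source of grafted cells. They describe 1 preparation of cells for both grafting and RNA but do not name the rats that gave the RNA, so whether these were wild-type or transgenic is not settled here. Schwann cell precursors (SCPs) came from the sciatic nerves and brachial plexus of untreated embryos at embryonic day 14, and repair Schwann cells (RSCs) came from the distal part of the sciatic nerve of rats aged 10 weeks, 1 week after the nerve was cut. Cells were dissociated with enzymes and then kept for a short time in uncoated flasks, which was meant to hold back fibroblasts and macrophages, and the cells left in suspension were used for RNA. The sources used here describe no sort by a marker and do not say how many animals each sample pooled, and age, nerve source and injury all differ between the groups and cannot be told apart.

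IGF1 and IGF2 are secreted proteins that signal through the IGF1 receptor, a tyrosine kinase whose substrates feed the PI3K-AKT-mTOR and RAS-ERK cascades. The IGF2 receptor, which is also the cation-independent mannose-6-phosphate receptor, carries IGF2 to the lysosome and has no kinase. Binding proteins hold the ligands outside the cell, lengthen their life and limit or direct their access to the receptor, and proteases that cut the binding proteins release the ligands. In peripheral nerve IGFs are known as survival factors for Schwann cells and as factors that favour axon growth. Igf2, H19, Igf2r and Grb10 are imprinted genes in rodents.

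Levels are given as FPKM, a fragment count divided by transcript length and by the mapped fragments of the sample, which allows genes of different length to be set side by side. Each table holds reference transcripts with a gene name and transcripts that Cufflinks assembled from that sample alone and left unnamed, and reads given to an unnamed transcript are missing from the named gene at the same place. The unnamed transcripts held 31.9%, 27.9% and 26.1% of all FPKM across the SCPs, in the order of the replicates 1 to 3 used throughout, against 23.4%, 18.8% and 18.6% across the RSCs. Each gene therefore has 2 estimates, the sum of its named transcripts and that sum plus the unnamed transcripts that overlap it under the same locus name. The 2 estimates were equal for Igf2, Igf2r, Igfbp2, Igfbp3 and Igfbp7, and they differed most for Igf1 and Igfbp5. Read counts are not in the tables and absolute depth is unknown. The relative depth, taken from coverage per unit of FPKM, was 0.933, 1.00 and 0.878 of the deepest sample in the SCPs and 0.799, 0.841 and 0.789 in the RSCs. SCP replicate 3 stood apart in 9 erythroid markers, whose sum was 48102, 37534 and 140763 FPKM in the SCP samples, which is 6.08%, 5.2% and 16.8% of all FPKM, against 0.369%, 0.298% and 0.381% in the RSC samples. Of these, 8 of 9 were higher in SCPs, 5 of which averaged under 1 FPKM in RSCs. Hbe1, an embryonic globin gene, was the most abundant of them and was listed at 0 in every RSC sample, as was Hbz.

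With the named and unnamed transcripts together, Igf2, both receptors and Igfbp2 to Igfbp5 were higher in SCPs, and Igfbp6, Igfbp7 and, by a small margin, Igf1 were higher in RSCs. A gene was called at an unadjusted p under 0.01 in limma on log2(FPKM + 1), and fold changes on this scale are RSC minus SCP and understate the change of low genes. The study's definition of a differentially expressed gene adds a log2 fold change over 2 to this p threshold, and genes past both are counted separately as over 4-fold. Igfbp7, with 0 FPKM in all 3 SCP samples, passed the filter on low values through the RSC samples alone, so it is left out of the counts that follow. The other 9 genes were all called, beside 57.3% of the 14020 genes tested. Of these 9, 7 were higher in SCPs, as were 34.1% of all genes, and 2 were higher in RSCs, as were 23.2%. Over 4-fold on the log2 scale were Igf2, Igfbp2, Igfbp3 and Igfbp5 in SCPs, where 4.58% of all tested genes were, and Igfbp6 in RSCs, where 8.57% were. By the named transcripts alone 8 of the 9 could be tested and 7 were called, beside 40.5% of 13003 genes, 6 of them higher in SCPs (22.4% of all genes) and 1 in RSCs (18.1%). Over 4-fold by that estimate were Igf2, Igf1r, Igfbp2 and Igfbp3 in SCPs (3.78% of all genes) and Igfbp6 in RSCs (7.81%). Igf1 was not called by that estimate, and Igfbp5 was listed at 0. With unnamed transcripts the groups did not overlap in any of the 9 genes, beside 72.4% of all genes tested without overlap, and by named transcripts they did not in 7, beside 58.6%. With unnamed transcripts the 7 genes higher in SCPs and Igfbp6 kept their calls with each sample left out, while Igf1 lost its call without SCP replicate 1, SCP replicate 2, RSC replicate 2 or RSC replicate 3. In bulk samples fewer cells of a type and less RNA per cell cannot be told apart.

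**Figure D1:**
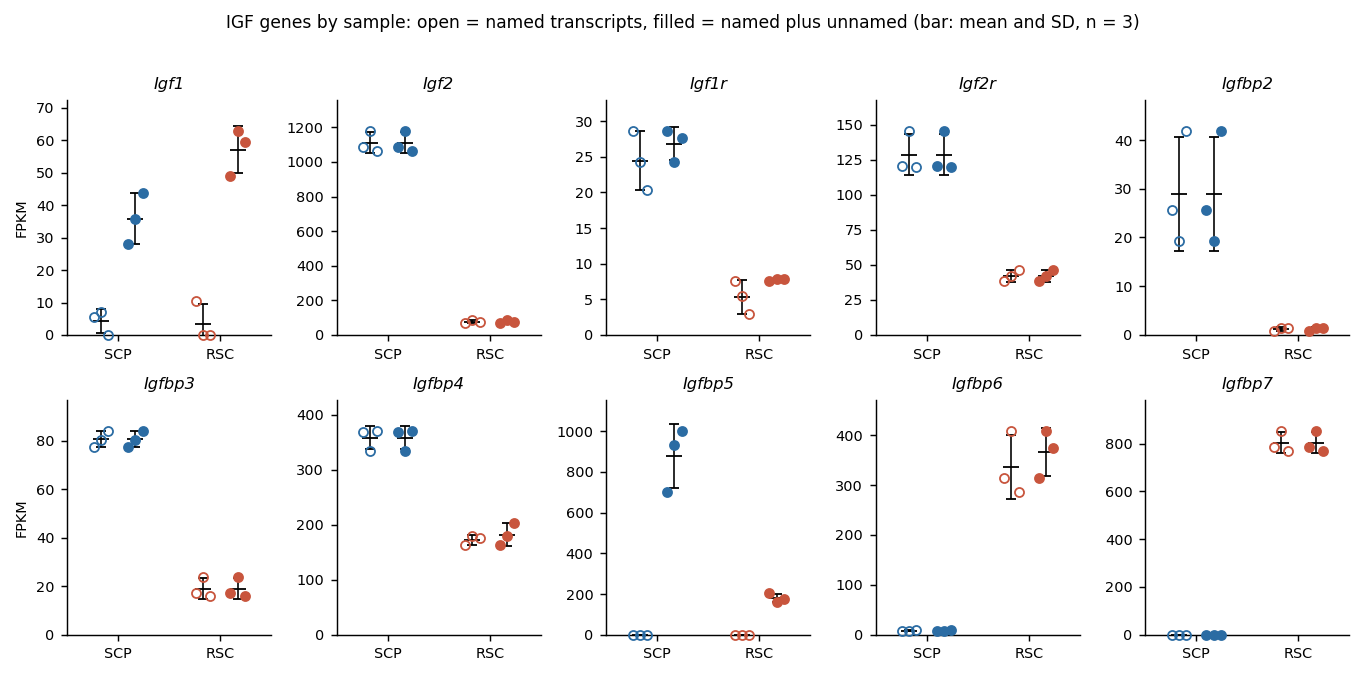
FPKM (vertical axes, each from 0) of the 10 IGF genes in 3 SCP samples (blue) and 3 RSC samples (red), with open points for named transcripts and filled points for named plus unnamed transcripts, and black bars for the mean and SD. The filled points of the groups do not overlap in any panel, while the open points overlap for Igf1 and lie at 0 for Igfbp5.

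The samples differed in transcripts of other cells as well. Sox10, the transcription factor that marks the Schwann lineage, was at 179, 175 and 181 FPKM across the SCPs against 149, 143 and 143 across the RSCs, so its level was high in all 6. Of 12 tested genes on a list of Schwann lineage markers, 10 were higher in RSCs and 1 in SCPs at p under 0.01, and Ngfr, the low-affinity neurotrophin receptor, was the most abundant. Fabp7, also on this list, was at 0 in every SCP sample. For scale, calls among all genes tested made up 23.2% towards RSCs and 34.1% towards SCPs. A called marker that averaged under 1 FPKM in its low group passed the filter on low values through the other group alone, which fixed its direction. The count of any marker list with such genes is therefore not read against these shares. Of a list of 20 leukocyte markers 19 are in the tables (Adgre1 is not under this name). Their summed FPKM was 28.7, 60.1 and 76.9 across the SCPs against 3166, 3703 and 3846 across the RSCs. Of 16 tested, 14 were higher in RSCs and none in SCPs, led by the macrophage lysozyme gene Lyz2. Cd3e and S100a8 were listed at 0 in every SCP sample and the B cell marker Ms4a1 at 0 in all 6. The sum of 12 fibroblast and mesenchyme markers was 706, 986 and 1076 across the SCPs against 7029, 8142 and 7482 across the RSCs, with 9 of 12 higher in RSCs and 2 in SCPs, led by Dcn, which encodes decorin, and no marker of this list was at 0 in a whole group. These lists hold markers of the cells that the step in uncoated flasks was meant to remove. Of the genes called, 5 on the leukocyte list and 1 on the fibroblast list averaged under 1 FPKM in SCPs. The sums of the leukocyte, fibroblast and erythroid lists lay apart between the same groups as the IGF genes, and their part in the differences of the IGF genes was not tested.

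Igf2, the fetal IGF ligand, lies on chromosome 1 from 215828102 to 215839081 of rn6 (all positions of genes and transcripts below are on rn6). It was at 1084, 1180 and 1066 FPKM across the SCPs against 68.6, 87.5 and 74.5 across the RSCs. Every SCP value lay far above every RSC value, and the ratio of the means was 14.4. The means were 1110 ± 61.0 and 76.9 ± 9.69 FPKM (SD, n = 3 each), with a log2 fold change of -3.84 ± 0.10 (SE, adjusted p = 1.5e-06 in limma). No unnamed transcript was joined to Igf2, so the estimate is the same with and without them.

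Igf2 has 7 named transcripts that share 1 end and differ in their start, and only 2 of them were above 0. NM_001190162.1, which starts at 215834704 on the minus strand, was at 782, 915 and 823 FPKM across the SCPs against 68.6, 87.5 and 74.5 across the RSCs. NM_031511.2, which starts at 215836641, was at 302, 265 and 244 in the SCP samples and listed at 0 in every RSC sample. The first transcript thus held 72.1%, 77.6% and 77.2% of Igf2 in the SCP samples and 100% in the RSC samples. How Cufflinks divides reads among transcripts that share most of their sequence is an estimate, and a transcript at 0 in the RSC samples is only listed there. The other 5 transcripts, all with starts further upstream, were listed at 0 in all 6 samples.

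The RefSeq promoter table, which is on the GRCr8 build, has windows for all 10 genes and 2 for Igf2. The 2 Igf2 windows lie 3505 bases apart, as do the starts of NM_001190162.1 and NM_001190163.1 on rn6. They are shown because the transcript at the first start held most of the reads and the one at the second was listed at 0. Each line gives the 250 bases before the start, 5′ to 3′ on the strand of the gene, and capitals mark the letters GGGCGG or their reverse complement CCGCCC, the core of a GC box.
Igf2, downstream start, chr1:207250476-207250725, minus strand: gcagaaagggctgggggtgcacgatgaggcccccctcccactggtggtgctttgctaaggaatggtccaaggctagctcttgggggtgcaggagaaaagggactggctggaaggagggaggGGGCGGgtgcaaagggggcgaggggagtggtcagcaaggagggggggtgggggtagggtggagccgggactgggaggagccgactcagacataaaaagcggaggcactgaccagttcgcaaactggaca
Igf2, upstream start, chr1:207253981-207254230, minus strand: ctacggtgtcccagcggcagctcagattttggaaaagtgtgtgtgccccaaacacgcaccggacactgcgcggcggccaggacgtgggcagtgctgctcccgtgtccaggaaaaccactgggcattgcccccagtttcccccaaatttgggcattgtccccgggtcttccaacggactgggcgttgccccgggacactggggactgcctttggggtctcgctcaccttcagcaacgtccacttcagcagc
The window matched to NM_001190162.1 holds the GC box letters once, 129 bases before the start, and the window matched to NM_001190163.1 does not hold them. The match rests on the spacing of the starts alone. NM_031511.2, the other transcript with reads, has neither window. Over all 33469 windows cut to the same length, 30.5% hold these letters on either strand.

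Igf1, the ligand that mediates growth hormone action after birth, lies on chromosome 7 from 28412123 to 28491815. Its named transcripts were at 5.69, 7.16 and 0 FPKM across the SCPs against 10.3, 0 and 0 across the RSCs, and the groups overlapped (log2 fold change -0.76 ± 1.26 SE, adjusted p = 0.66 in limma). Between 79.0% and 100% of the Igf1 signal of a sample lay in unnamed transcripts, 14 over the 6 tables, of 6736 to 7115 bases at the same place. With these, Igf1 was at 28.2, 35.6 and 43.9 FPKM across the SCPs against 49.1, 62.9 and 59.4 across the RSCs. All RSC values were above all SCP values, and the means were 35.9 ± 7.86 and 57.2 ± 7.18 (SD, n = 3 each). The log2 fold change was 0.67 ± 0.18 (SE, adjusted p = 0.014 in limma), opposite in sign to that of the named transcripts. Leaving out SCP replicate 1, SCP replicate 2, RSC replicate 2 or RSC replicate 3 raised p to between 0.016 and 0.030, so this call rests on each of them.

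The Igf1 transcripts begin in 2 places, with starts between 28411842 and 28412554 and at 28414350. The upstream starts held 16.9, 35.6 and 28.9 FPKM across the SCPs against 41.1, 62.9 and 59.4 across the RSCs. The downstream start was at 11.3, 0 and 15.0 FPKM across the SCPs against 8.03, 0 and 0 across the RSCs, where 0 was reached in both groups. The 2 ligands together summed to 1146 ± 60.1 FPKM in SCPs and 134 ± 16.4 in RSCs (SD, n = 3 each). Igf2 made up 97.5%, 97.1% and 96.0% of this sum across the SCPs against 58.3%, 58.2% and 55.6% across the RSCs, an Igf1 share of 42.6% ± 1.5 in RSCs against 3.14% ± 0.733 in SCPs. With 3 samples against 3 the exact two-sided permutation test cannot go below 0.1, the value it gave. By named transcripts alone, which leave out most of Igf1, the Igf2 share was 99.5%, 99.4% and 100% across the SCPs against 86.9%, 100% and 100% across the RSCs. These shares overlapped, and the difference of -3.99 percentage points (exact two-sided permutation test p = 1) turned to 0.375 without RSC replicate 1. The larger Igf1 share of RSCs is thus seen only with the unnamed transcripts.

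**Figure D2:**
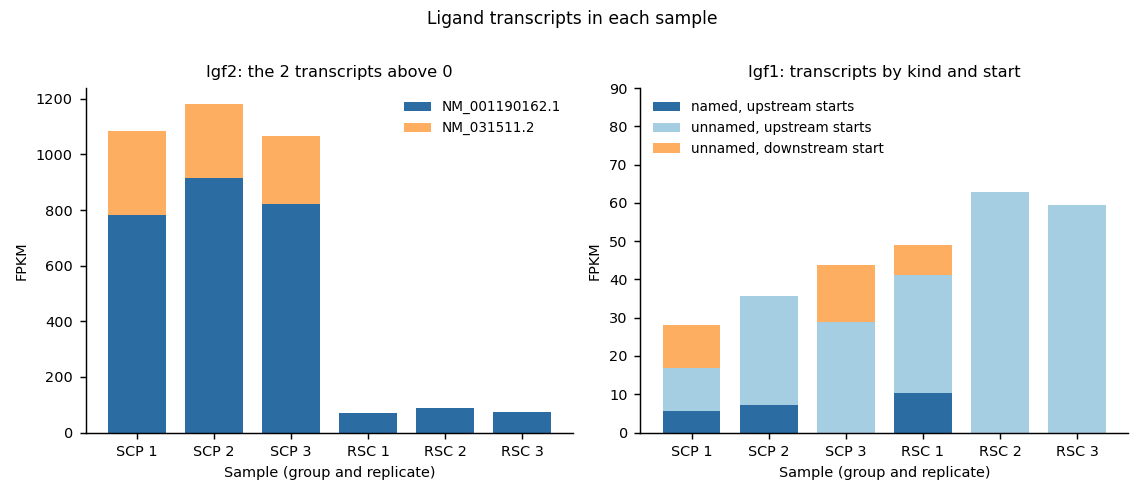
FPKM (vertical axes) of the Igf2 transcripts above 0 (left) and of Igf1 transcripts by kind and start (right), as stacked bars for each SCP and RSC sample on the horizontal axes. NM_031511.2 appears in the 3 SCP samples and in no RSC sample, and named transcripts are at most 10.3 FPKM of any Igf1 bar.

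Both receptors were higher in SCPs. Igf1r (chromosome 1 from 128924921 to 129213816), the signalling receptor, was at 28.6, 24.3 and 27.7 FPKM across the SCPs against 7.62, 7.82 and 7.84 across the RSCs. The groups did not overlap and the RSC values were close to each other, with means of 26.9 ± 2.27 and 7.76 ± 0.121 (SD, n = 3 each). The log2 fold change was -1.67 ± 0.10 (SE, adjusted p = 2.6e-05 in limma). By the named transcripts alone the RSC values were 7.62, 5.42 and 2.92 and SCP replicate 3 was at 20.3, and the log2 fold change was -2.07 ± 0.32 (SE, adjusted p = 0.0030). With only the highest named transcript of each gene the difference was -1.78 (adjusted p = 0.039 in limma) and missed the threshold on the unadjusted p.

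Igf2r (chromosome 1 from 48176106 to 48264479), which clears IGF2, has a single named transcript of 8789 bases. It was at 121, 146 and 120 FPKM across the SCPs against 38.2, 41.9 and 46.4 across the RSCs, with no overlap. The ratio of the means was 3.05 for Igf2r and 3.46 for Igf1r. For Igf2r the log2 fold change was -1.59 ± 0.11 (SE, adjusted p = 4.7e-05 in limma). The level of Igf2r was 4.22, 5.99 and 4.32 times that of Igf1r in the SCP samples and 5.01, 5.36 and 5.91 times in the RSC samples. These ratios overlapped between the groups (means 4.84 ± 0.993 and 5.43 ± 0.455, SD, n = 3 each, exact two-sided permutation test p = 0.4). By named transcripts alone they were 4.22, 5.99 and 5.88 across the SCPs against 5.01, 7.73 and 15.9 across the RSCs, with means of 5.36 ± 0.991 and 9.54 ± 5.65 (SD, n = 3 each, exact two-sided permutation test p = 0.3), and also overlapped.

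The binding proteins fell into 2 sets, with Igfbp2, Igfbp3, Igfbp4 and Igfbp5 higher in SCPs and Igfbp6 and Igfbp7 higher in RSCs. Igfbp5 (chromosome 9 from 80154230 to 80166813), a binding protein that also attaches to extracellular matrix, was the most abundant of them in SCPs, but none of its signal lay in the named transcript. That transcript of 1627 bases was listed at 0 in all 6 tables with the status LOWDATA, and each table held 1 unnamed transcript of 5267 to 6116 bases over the same place. These were at 700, 931 and 1002 FPKM across the SCPs against 204, 160 and 177 across the RSCs. All SCP values were above all RSC values, by 4.87 times in the means. The means were 878 ± 158 and 180 ± 22.0 FPKM (SD, n = 3 each), with a log2 fold change of -2.27 ± 0.16 (SE, adjusted p = 4.1e-05 in limma).

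Igfbp4 (chromosome 10 from 86950555 to 86962563), a binding protein that inhibits IGF action until it is cut by PAPP-A, was at 369, 334 and 371 FPKM across the SCPs against 163, 179 and 204 across the RSCs. It had the smallest difference of the 4 that were higher in SCPs, at 1.97 times, with a log2 fold change of -0.98 ± 0.10 (SE, adjusted p = 2.1e-04 in limma), and -1.05 by named transcripts alone. Igfbp3 (chromosome 14 from 87457647 to 87465374), the main IGF carrier in blood, was at 77.6, 80.4 and 84.2 FPKM across the SCPs against 17.3, 23.9 and 16.0 across the RSCs. The groups did not overlap and the log2 fold change was -2.05 ± 0.15 (SE, adjusted p = 5.4e-05). Igfbp2 (chromosome 9 from 80118029 to 80144804), a binding protein typical of fetal tissue, was at 25.6, 19.3 and 41.9 FPKM across the SCPs against 0.759, 1.39 and 1.47 across the RSCs. Its SCP values spread widely, with replicate 3 the highest, but lay above all RSC values, with a log2 fold change of -3.71 ± 0.30 (SE, adjusted p = 7.4e-05). The read coverage behind Igfbp2 in the RSC samples was as low as 0.366, the least of any named value above 0 among these genes.

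Igfbp6 (chromosome 7 from 143749385 to 143754018), which binds IGF2 in preference to IGF1, was at 7.46, 7.17 and 9.22 FPKM across the SCPs against 315, 409 and 375 across the RSCs. Every RSC value lay far above every SCP value, by 46.1 times in the means, and the log2 fold change was 5.36 ± 0.13 (SE, adjusted p = 1.4e-06 in limma). An unnamed transcript added 89.8 FPKM in RSC replicate 3 only, and without it the log2 fold change was 5.23. Igfbp7 (chromosome 14 from 33010300 to 33070193), a secreted protein that binds IGFs weakly and is found in vessel walls and matrix, reached 786, 854 and 771 FPKM across the RSCs and was listed at 0 in all 3 SCP samples. No unnamed transcript of its locus was found in any sample, and neither a fold nor a p is given against values of 0, since the pseudocount would set them. Cufflinks gave the SCP values of Igfbp7 the status OK and upper confidence bounds of 0.311, 0.291 and 0.327 FPKM. The bounds in the RSC samples, 698, 753 and 682, lay below the FPKM they belong to, so these bounds were not used as errors.

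**Figure D3:**
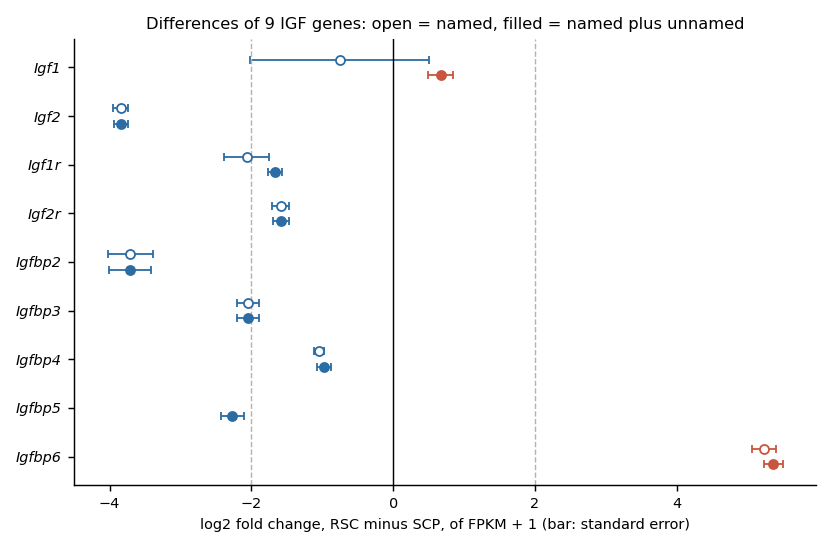
Log2 fold change of FPKM + 1, RSC minus SCP (horizontal axis), with its standard error, for 9 IGF genes (vertical axis), from named transcripts (open) and named plus unnamed transcripts (filled), with dashed lines at a 4-fold difference. Igfbp6 lies at 5.23 and 5.36, Igf1 changes side between the estimates, and Igfbp7 is not drawn because it was listed at 0 in SCPs.

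The summed level of the 6 binding proteins overlapped between the groups, while its make-up differed. The overlap rested on Igfbp7, and on SCP replicate 3 lying above RSC replicate 1, the only such pair of samples. The sum was 1179, 1372 and 1508 FPKM across the SCPs against 1485, 1628 and 1544 across the RSCs, and the ranges overlapped (means 1353 ± 165 and 1552 ± 71.8, SD, n = 3 each, exact two-sided permutation test p = 0.2). By named transcripts alone, which leave out Igfbp5, the sums were 475 ± 32.9 and 1333 ± 118 and did not overlap. Without Igfbp7, and with unnamed transcripts, the sums were 699, 773 and 773 FPKM across the RSCs, all below the SCP values, which stay as they were. Igfbp5 made up 59.3%, 67.9% and 66.4% of the sum across the SCPs against 13.7%, 9.84% and 11.5% across the RSCs. Igfbp7 made up 52.9%, 52.5% and 49.9% in the RSC samples and Igfbp6 a further 21.2%, 25.1% and 24.3%, against 0 and at most 0.632% in the SCP samples. Igfbp4 held 26.7% ± 3.94 of the sum in SCPs and 11.7% ± 1.28 in RSCs (SD, n = 3 each).

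Set against the ligands, the binding proteins were 1.06, 1.13 and 1.36 times the summed FPKM of Igf1 and Igf2 in the SCP samples and 12.6, 10.8 and 11.5 times in the RSC samples. The groups lay apart, with means of 1.18 ± 0.156 and 11.7 ± 0.905 (SD, n = 3 each, exact two-sided permutation test p = 0.1, the smallest that 3 against 3 allow). By named transcripts alone the means were 0.429 ± 0.0526 and 16.6 ± 0.306, and the direction was the same. Without Igfbp7 the ratios with unnamed transcripts were 5.94, 5.14 and 5.77 across the RSCs, a mean of 5.62 ± 0.421 (SD, n = 3), so this gene gave about as much of the RSC ratio as the other binding proteins together. These ratios compare transcript levels per length and not protein.

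**Figure D4:**
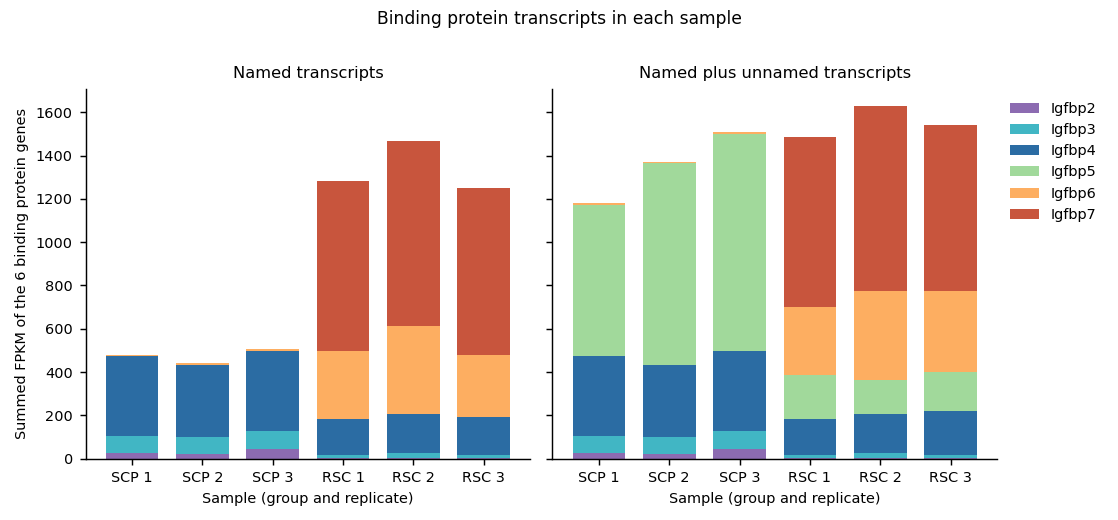
Summed FPKM (vertical axis) of Igfbp2 to Igfbp7 in each SCP and RSC sample (horizontal axis), stacked by gene, from named transcripts (left) and named plus unnamed transcripts (right). On the right the bars have similar heights, with Igfbp5 holding 59.3% or more of the SCP bars and Igfbp7 49.9% or more of the RSC bars, and on the left Igfbp5 is missing.

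Promoter windows are shown for the most abundant binding protein of SCPs and for the 2 that were higher in RSCs, since these genes make up most of the difference in make-up. They are again the 250 bases before the RefSeq start on GRCr8, with GC box letters in capitals.
Igfbp5, chr9:81914188-81914437, minus strand: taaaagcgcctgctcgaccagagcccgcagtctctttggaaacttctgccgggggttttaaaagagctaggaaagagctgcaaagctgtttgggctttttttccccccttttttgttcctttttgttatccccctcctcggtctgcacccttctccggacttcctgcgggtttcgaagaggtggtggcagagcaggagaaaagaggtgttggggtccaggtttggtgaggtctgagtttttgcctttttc
Igfbp6, chr7:135154669-135154918, plus strand: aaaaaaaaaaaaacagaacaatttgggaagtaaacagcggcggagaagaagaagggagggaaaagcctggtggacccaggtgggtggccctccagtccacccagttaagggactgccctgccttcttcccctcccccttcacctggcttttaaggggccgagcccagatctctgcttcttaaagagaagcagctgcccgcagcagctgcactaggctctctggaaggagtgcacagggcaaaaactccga
Igfbp7, chr14:31091486-31091735, plus strand: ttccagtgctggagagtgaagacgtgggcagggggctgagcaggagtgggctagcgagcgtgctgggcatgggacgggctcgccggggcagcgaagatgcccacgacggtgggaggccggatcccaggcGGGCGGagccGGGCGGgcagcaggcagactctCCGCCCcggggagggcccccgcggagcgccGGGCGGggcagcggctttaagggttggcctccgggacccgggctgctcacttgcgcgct
The Igfbp7 window holds the GC box letters 4 times, at 121, 111, 89 and 59 bases before the start, and its GC content was 74.4%. The Igfbp5 and Igfbp6 windows hold none, with GC contents of 51.6% and 54.8%. Among the other members the letters occurred 2 times before Igf2r and 1 time each before Igf1r and Igfbp2, and not before Igf1, Igfbp3 or Igfbp4. The letters TATAAA were found only before Igfbp4, 40 bases upstream, beside 12.9% of all windows, and CCAAT (34.0% of all windows) and TGANTCA, the AP-1 site letters (6.34%), were found in none of the 11 windows on either strand. The motifs do not overlap each other in these windows, and their presence or absence is a description of the letters only.

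In the neighbouring pairs with signal in both genes, Igfbp2 with Igfbp5 and Igf2 with H19, all genes were higher in SCPs. The other neighbours examined, Igfbp1 and Ins2, had little or no signal and could show no difference. Igfbp2 and Igfbp5, whose named transcripts lie 9425 bases apart on chromosome 9, were both higher in SCPs. The unnamed transcripts that held the Igfbp5 signal reached nearer to Igfbp2, with lower ends between 80150090 and 80150804. Igfbp3 was higher in SCPs, while Igfbp1, whose end lies 3863 bases away on chromosome 14, was near 0 in both groups, at most 0.310 FPKM. H19, the imprinted non-coding RNA gene whose end lies 81021 bases from Igf2, was at 2401, 2411 and 2845 FPKM across the SCPs against 741, 1050 and 891 across the RSCs. H19 was thus higher in SCPs without overlap (log2 fold change -1.52 ± 0.14 SE, adjusted p = 1.4e-04 in limma), by 2.86 times where Igf2 differed by 14.4 times. The insulin gene Ins2, 17885 bases from Igf2 on its other side, was listed at 0 in all 6 samples.

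The genes nearest to a member in level and pattern were found by the Euclidean distance of log2(FPKM + 1) over the 6 samples among 14020 genes. For Igf2 the nearest was Igfbp5 (distance 2.29), followed by the cell cycle kinase gene Cdk4 (2.37). For Igf1 they were Loxl1, a lysyl oxidase of elastic fibres (0.270), Cyb5a, a cytochrome b5 (0.418), and Selt (0.447). For Igfbp7 they were Lgals3, which encodes galectin-3 and was at 0.920, 0.214 and 0.242 FPKM across the SCPs against 692, 701 and 712 across the RSCs (1.09), LOC102549714 (2.1) and the invariant chain gene Cd74 of antigen-presenting cells (2.12). The 6 samples share their libraries across all these genes, and no test was made on these distances.

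Markers of other tissues near the nerve had lower sums than those of leukocytes, fibroblasts and red cells in the group where each was high. For 10 skeletal muscle markers, 8 of them higher in SCPs and 1 in RSCs and led by Tnnt1, the sum was 76.7, 93.3 and 186 FPKM across the SCPs against 35.2, 38.6 and 31.7 across the RSCs, and Myod1, Myf5 and Pax7 were listed at 0 in every RSC sample. Of the 8 calls, 6 were of genes that averaged under 1 FPKM in RSCs and passed the filter through the SCP samples alone. For 10 neuron markers, with 4 of 7 tested higher in SCPs and none in RSCs and led by Tubb3, it was 76.1, 50.9 and 49.0 across the SCPs against 35.4, 27.3 and 28.2 across the RSCs, with Elavl4 and Isl1 at 0 in every RSC sample, and all 4 called genes averaged under 1 FPKM in RSCs. For 7 cartilage and skeletal progenitor markers, with 2 of 4 tested higher in RSCs and 1 in SCPs and led by Col2a1, it was 80.5, 104 and 118 across the SCPs against 55.0, 59.0 and 54.2 across the RSCs, with Matn1 at 0 in every RSC sample, and Col2a1, the gene called higher in SCPs, averaged under 1 FPKM in RSCs. The sums of 10 endothelial markers, 2 of them higher in RSCs and none in SCPs and led by Cldn5, were 79.0, 146 and 96.8 in SCPs and 180, 172 and 158 in RSCs. The sums of 9 mural cell markers, 3 of them higher in RSCs and 2 in SCPs and led by Acta2, overlapped between the groups, at 162, 440 and 258 in SCPs and 380, 342 and 376 in RSCs. For 5 perineurial markers, with 3 of 4 tested higher in RSCs and 1 in SCPs and led by Itgb4, the sum was 37.7, 30.8 and 27.8 in SCPs and 233, 268 and 289 in RSCs, with Lypd2 at 0 in all 6 samples, and 1 called gene in each direction averaged under 1 FPKM in the other group. The sums lay apart between the groups in every list but that of the mural cells, and their part in the results was not tested.

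The genes around the ligands and receptors were taken from 5 lists of 72 genes, of which 70 are in the tables (Pappa2 and Rack1 are not under these names). With unnamed transcripts 62 could be tested, 13 were higher in RSCs and 19 in SCPs, a share in each direction near that of all genes given above. The median log2 fold change over the 62 was -0.27, beside -0.24 over all genes tested. By named transcripts alone 58 could be tested, 6 (10.3%) were higher in RSCs and 8 (13.8%) in SCPs, lower shares than the 18.1% and 22.4% of all genes by that estimate. Among the genes called with unnamed transcripts, Igf2bp1, Igf2bp3 and Stc1 averaged under 1 FPKM in RSCs and Pik3cd did so in SCPs, so that each passed the filter on low values through the other group alone. The counts above include these genes and stand beside the shares of all genes for scale only. Below, values are from named plus unnamed transcripts, and a call that the named transcripts do not share is named.

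Of 5 other genes of the insulin and IGF family tested, 4 were called, all higher in SCPs, where 34.1% of all genes were. Of the 4, 2 (Igf2bp1 and Igf2bp3) averaged under 1 FPKM in RSCs and passed the filter through the SCP samples alone. The count is therefore not read against the share of all genes. The IGF2 mRNA-binding proteins, fetal RNA-binding proteins that attach to Igf2 and other transcripts, were among the genes called. Igf2bp1 was at 63.4, 50.5 and 48.9 FPKM across the SCPs against 0, 0.0691 and 0 across the RSCs. Igf2bp3 was at 36.3, 36.8 and 34.6 FPKM across the SCPs against 0.357, 0.589 and 0.230 across the RSCs. The groups lay far apart in both genes, and no fold is given against RSC values at or near 0. Igf2bp2 was at 59.4, 53.2 and 47.9 across the SCPs against 21.9, 26.5 and 21.3 across the RSCs, a smaller difference of 2.30 times. Insr, the insulin receptor gene, was at 8.08, 8.45 and 5.66 across the SCPs against 5.09, 4.69 and 4.32 across the RSCs, and p was 0.017, so it was not called. Ins1, Ins2 and Igfals, which encodes the acid-labile subunit of the circulating IGF complex, were listed at 0 in all 6 samples. Igfbpl1 had 1.52, 1.99 and 0.161 FPKM across the SCPs and was listed at 0 in the RSC samples, and Insrr, an orphan relative of the insulin receptor, was at most 0.610 FPKM.

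Among proteases that cut binding proteins and their inhibitors, 2 of 5 tested genes (40.0%) were higher in RSCs and 2 (40.0%) in SCPs, beside 23.2% and 34.1% of all genes. Stc1, called higher in SCPs, passed the filter through the SCP samples alone, so the SCP count is not read against that share. By named transcripts 1 of 5 was higher in RSCs and none in SCPs. Htra1, a secreted serine protease, was at 3.32, 9.13 and 5.90 FPKM across the SCPs against 791, 548 and 752 across the RSCs. Its log2 fold change of 6.68 ± 0.31 (SE, adjusted p = 9.3e-06 in limma) was larger than that of any IGF gene with signal in both groups. Adam12, a metalloprotease known to cut IGFBP3 and IGFBP5, was at 71.5, 70.3 and 67.6 FPKM across the SCPs against 7.58, 10.7 and 9.03 across the RSCs (log2 fold change -2.82). Adam9 was higher in RSCs (1.06), with the opposite sign by named transcripts (-0.84, not called), and Stc1, an inhibitor of PAPP-A, was at 2.14, 2.07 and 2.42 FPKM across the SCPs against 1.02, 0.339 and 0.898 across the RSCs. The calls of Adam12, Adam9 and Stc1 were made only with the unnamed transcripts, while Htra1 was called by both estimates.

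Of 13 tested receptor substrates and adaptors, 4 (30.8%) were higher in RSCs and 3 (23.1%) in SCPs, beside 23.2% and 34.1% of all genes. By named transcripts 2 of 13 were called in each direction (15.4%), beside 18.1% and 22.4% of all genes. Grb10, an imprinted adaptor that binds the insulin and IGF1 receptors and dampens their signal, was at 451, 465 and 405 FPKM across the SCPs against 7.58, 7.49 and 8.49 across the RSCs. No sample of one group came near the other, and the log2 fold change was -5.64 ± 0.09 (SE, adjusted p = 4.2e-07 in limma). The insulin receptor substrates Irs1 and Irs2 were higher in SCPs as well, with log2 fold changes of -1.55 and -0.87. Socs2 and Socs3, which damp cytokine and growth hormone signalling, were higher in RSCs, by 2.28 and 1.74 in log2 units, and the docking protein gene Gab1 was at 0.72. The calls of Irs1 and Socs2 were made only with the unnamed transcripts.

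In the PI3K, AKT and mTOR arm 5 of 25 tested genes (20.0%) were higher in RSCs and 7 (28.0%) in SCPs, beside 23.2% and 34.1% of all genes. By named transcripts 1 of 21 was called in each direction (4.76%), beside 18.1% and 22.4% of all genes. Pik3cd with unnamed transcripts and Pik3r3 by named transcripts passed the filter only through the group where they were high. The counts that include them are not read against these shares. Pik3cd, the PI3K catalytic subunit typical of leukocytes, was at 0.973, 0.699 and 0.854 FPKM across the SCPs against 8.70, 10.2 and 10.4 across the RSCs, with no overlap. Its RSC signal lay in unnamed transcripts only, since by named transcripts it was at 0.973, 0 and 0 FPKM in SCPs and at 0 throughout the RSCs, too low to be tested. Pik3r1, a regulatory subunit, was also higher in RSCs (log2 fold change 1.27). Pik3r3, another regulatory subunit, was higher in SCPs (-1.70), as were Rps6kb1, which encodes the S6 kinase (-0.79), and Pik3ca (-0.68). Of these 5 genes only Pik3r3 was called by the named transcripts, by which it was at 0 FPKM throughout the RSCs.

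In the RAS and ERK arm 2 of 14 tested genes (14.3%) were higher in RSCs and 3 (21.4%) in SCPs, beside 23.2% and 34.1% of all genes. By named transcripts 2 of 14 (14.3%) were higher in RSCs and 1 (7.14%) in SCPs, beside 18.1% and 22.4% of all genes. Mapk3, which encodes ERK1, was at 110, 123 and 151 FPKM across the SCPs against 341, 315 and 368 across the RSCs, 2.67 times higher in RSCs with no overlap (log2 fold change 1.42). Spry2, a feedback inhibitor of the arm, was also higher in RSCs (0.70). The transcription factor gene Elk1 (-1.12), the kinase gene Map2k1 (-0.63) and Araf (-0.52) were higher in SCPs, of which Elk1 alone was called by the named transcripts.

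**Figure D5:**
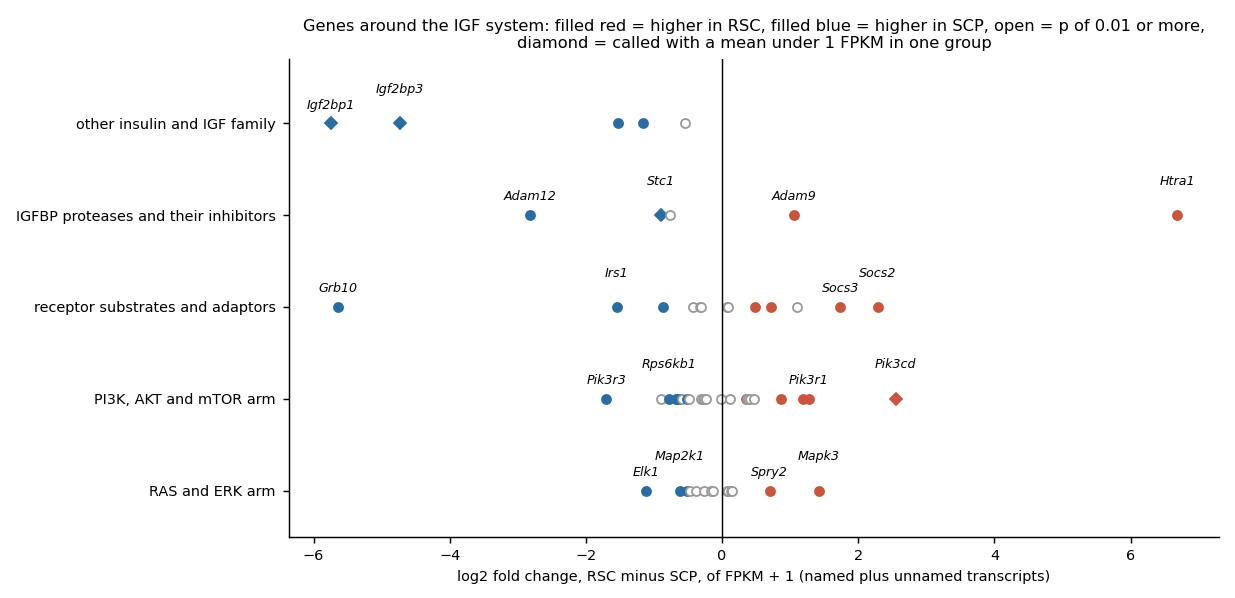
Log2 fold change of FPKM + 1, RSC minus SCP (horizontal axis), of each tested gene in 5 lists around the IGF genes (vertical axis), from named plus unnamed transcripts, with filled points for genes called at p under 0.01, open points for the others, and diamonds for called genes with a mean under 1 FPKM in one group, whose place depends on the pseudocount. Grb10 lies at -5.64 and Htra1 at 6.68. The median lies at -0.26 in the PI3K arm, with 12 of 25 genes called, and at -0.15 in the RAS arm, with 5 of 14 called. Of all genes, 57.3% were called.

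The median gene itself was lower in RSCs on the deposited scale, by 0.17 in log2 units for named transcripts and 0.24 with unnamed transcripts. Median-of-ratios scaling moved it to 0.0092 and -0.0036, and among all genes by named transcripts it turned 2351 calls higher in RSCs and 2917 higher in SCPs into 2763 and 2195. Under that scaling the 9 genes above 0 in both groups kept their direction and their call with unnamed transcripts, with Igf1 at 0.93 and Igfbp4 at -0.71 as the smallest differences.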

How the data were processed

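The authors sequenced stranded mRNA libraries, mapped the reads to rn6 with TopHat2 2.1.0 and made 1 table per sample with Cufflinks 2.2.1, by the methods and the submitters' processing notes. The deposited values are FPKM and, as a signal, the read coverage of each transcript, from which relative depth (the median of coverage over FPKM) was taken. No counts are held, so a count test was not used and counting error is unknown. Per sample, 77 transcripts with date-like names were left out. FPKM were summed by symbol, without and with unnamed transcripts of the same locus that overlap the gene. The tables hold no strand. RSC and SCP were compared with limma 3.58.1 (R 4.3.3, variance trend) on log2(FPKM + 1) over genes that averaged 1 FPKM or more, with Benjamini-Hochberg adjustment over every gene tested. Where the labels do not give separate litters or animals, p-values measure the spread between these samples. Permutation tests were exact and two-sided. Scripts were tested on simulated data.

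The members and gene lists were chosen with earlier results of these data known, and the lists were written from general knowledge. Named in the text are the 10 members, all other insulin and IGF family genes, the 3 largest and 3 smallest called log2 fold changes of each pathway list, the most abundant gene and the genes at 0 of each marker list, and the 3 genes nearest to Igf1, Igf2 and Igfbp7. A few genes that fall under it are left out of the text. Sox10, Adgre1, Pappa2 and Rack1 were named outside it. Alternatives tried were quantile normalization, no filter, median-of-ratios scaling, a pseudocount of 0.1, a minimum mean of 5 FPKM, a fit without the variance trend, a replicate block, the highest named transcript, adjusted p under 0.05, and each sample left out. Promoter windows and motifs come from the RefSeq table of GRCr8.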

Additional observations from a re-analysis of the deposited data

Results flagged for a closer look

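Some unnamed transcripts overlap the span of an IGF gene, in whole or in part, but carry the name of another locus, so that neither estimate of the gene counts them. They appeared in SCP samples and in no RSC sample, at levels above 0. In SCP replicate 2 one of 6285 bases, on chromosome 1 from 48121970 to 48206117, overlapped Igf2r at 15.3 FPKM, and in SCP replicate 3 one of 9688 bases, from 48121974 to 48205962, did so at 9.66 FPKM. Both begin outside the gene. In SCP replicate 2 a transcript of 3556 bases on chromosome 14 from 33070104 to 33099651 reached the edge of the Igfbp7 span at 10.2 FPKM, where Igfbp7 itself was listed at 0. In SCP replicate 3 a transcript of 449 bases on chromosome 1 from 215836912 to 215837360 lay within the Igf2 span at 8.79 FPKM, a small amount beside the 1066 FPKM of Igf2 in that sample. The tables hold no strand, so which gene these reads belong to was not tested.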

How the results depend on the processing

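Of 253 recomputed log2 fold changes of members, 247 kept their direction and their side of the threshold, 5 lost their call and 1 changed sign, with Igfbp7 included, whose direction its zeros fix. Of 118 recomputed counts of calls, 63 equalled the first count, 52 more lay within 1.5 times of it or at that limit, and 3 moved further. Of 65 recomputed shares, sums and ratios, 54 shifted by no more than 1 SD, 9 moved further and 2 changed sign. Igf1 went from -0.76 by named transcripts to 0.67 with unnamed transcripts. The difference in the Igf2 share of the ligands by named transcripts, -3.99 percentage points, lay between -6.17 and 0.375 over the 6 samples left out and was above 0 without RSC replicate 1, the only RSC sample with named Igf1. The value of 0.67 for Igf1 lost its call on leaving out SCP replicate 1 or 2 or RSC replicate 2 or 3, with a range of 0.51 to 0.82 over the 6 samples left out. Igf1r lost its call with the highest named transcript (-1.78). Adding unnamed transcripts moved the calls of the pathway lists from 6 and 8 to 13 and 19 and those of all genes higher in SCPs from 2917 to 4787. It moved the difference in the Igf2 share to -39.5 percentage points, and in shares of the binding proteins from -5.91 to -2.04 for Igfbp2, from -15.6 to -4.79 for Igfbp3, from -62.3 to -15.0 for Igfbp4, from 0 to -52.9 for Igfbp5 and from 60.4 to 51.8 for Igfbp7. With unnamed transcripts the RSC minus SCP difference in the sum of binding proteins was 199 FPKM. Over the 6 samples left out it lay between 112 (without SCP replicate 1) and 276 (without SCP replicate 3). By named transcripts this difference went from 199 to 857 FPKM and that in the ratio of binding proteins to ligands from 10.47 to 16.2. Without Igfbp7, an alternative chosen after seeing the data, these were -605 FPKM, a change of sign, and 4.43. These shifts follow from which transcripts or genes are counted. Among the 7 members above 0 in both groups that were called by named transcripts, Igf2, Igf2r, Igfbp2, Igfbp3, Igfbp4 and Igfbp6 kept direction and call in every alternative run. With a mean of at least 5 FPKM Igf1 had no value by named transcripts, and Igfbp5 had none in any fit of named transcripts.

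Replicate numbers come from the sample titles, and deviations of same-numbered samples from their group means correlated at 0.044, -0.0049 and 0.026. With 3 samples a group, and deviations that sum to 0 in each, these values cannot show whether the numbers pair the samples. With the replicate number as a block, 2022 genes were higher in RSCs and 2253 in SCPs by named transcripts, against 2351 and 2917 without it, and no call of a member changed. SCP replicates 1 and 3 correlated best with the RSC sample of their own number and SCP replicate 2 did not. Absolute depth is unknown, and precision rests on 3 samples a group.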

Other observations

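Igfbp5 was not the only gene that the named transcripts placed at 0. In 128 genes the named transcripts were at 0 in all 6 samples while unnamed transcripts at the same place reached at least 5 FPKM in every sample. Among these, 38 (29.7%) were higher in SCPs and 26 (20.3%) in RSCs at p under 0.01 in limma, beside 34.1% and 23.2% of all genes tested. By mean FPKM Igfbp5 ranked 3 among the 128.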
